A study of Mus musculus with 2 samples.

Results

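The genes described here are 6 of the 32285 genes counted in each mouse and form a core set by which regulatory T cells are usually recognised, namely *Foxp3*, *Il2ra*, *Nrp1*, *Lrrc32*, *Gpr83* and *Izumo1r*. They were taken as a named list, by a rule that uses no measured value, although the list was chosen with earlier results of these data known. All 6 were counted in both genotypes. The cells in which they were read were chosen by transcripts. T cells were those with a UMI (a distinct captured molecule) of any of the *Cd3d*, *Cd3e* and *Cd3g* chains. Those with *Cd4* but neither *Cd8a* nor *Cd8b1* are called Cd4-gated, and those with *Cd8a* or *Cd8b1* but without *Cd4* are called Cd8-gated. A Cd4-gated cell was Foxp3-positive when it held at least 1 UMI of *Foxp3*. Program cells had 3 or more UMIs summed over *Dscam*, *Penk* and *Hapln1*, with or without *Foxp3*. These genes also lead a cluster of these same data that came almost wholly from 1 of the 2 mice. The other Foxp3-negative cells had no *Foxp3* UMI and fewer than 3 UMIs summed over those genes.

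Single αβ T cells (TCRβ+) were prepared from spleen and from cervical and inguinal lymph nodes of a pair of mice at 14 weeks of age, 1 *Foxp3Cre* WT and 1 DKO-severe. Both mice expressed Cre recombinase from a *Foxp3* allele that also carries YFP. In the DKO-severe mouse *Tet2* and *Tet3* were floxed on both alleles, so that the enzymes they encode, which oxidise methylated cytosine in DNA, are deleted in cells that express or once expressed *Foxp3*. The study regards this Cre line as leaky, so deletion may not be limited to Treg cells, and the name DKO-severe marks an animal with advanced disease. Cells of the 2 mice carried different antibody hashtags, and the labels give 1 mRNA library for both. With 1 mouse per genotype no difference between genotypes has a replicate check, so every interval given here is a 95% interval that covers counting error only (exact, except for a difference between 2 log2 ratios, where it is approximate), and no p-value was computed.

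Treg cells are CD4 T cells that restrain immune responses, and the transcription factor FOXP3 is required for their development and function. They depend on interleukin 2 made by other cells, which they bind through a receptor that includes the α chain CD25, encoded by *Il2ra*. The surface proteins encoded by *Nrp1*, *Lrrc32*, *Gpr83* and *Izumo1r* are widely used to tell Treg cells from conventional CD4 T cells, although activated T cells can express several of them too. TET enzymes are known to keep regulatory DNA of *Foxp3* free of methylation and so help cells retain its expression.

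All 6 genes are protein coding. In GRCm38.p6, the build of the mm10 reference used for counting, *Foxp3* lies on chromosome X (7579676 to 7595243), *Il2ra* on chromosome 2 (11642792 to 11693194), *Lrrc32* on chromosome 7 (98489305 to 98501831) and *Nrp1* on chromosome 8 (128358591 to 128505476). *Gpr83* (14859880 to 14870789) and *Izumo1r* (14885814 to 14903951) are neighbours on chromosome 9, 15024 bases apart, with *Gpr83* on the plus strand and *Izumo1r* on the minus strand. Promoter sequences were available from RefSeq for 5 of the genes. Since loss of TET enzymes bears on CG dinucleotides, the sites of cytosine methylation, these were counted in the 250 bases before each listed start. There were 18 in *Gpr83*, 11 in *Nrp1*, 6 and 7 for the 2 listed starts of *Foxp3*, 3 in *Il2ra* and 2 in *Izumo1r*, against a median of 6 over 32851 promoters. The sequences of *Il2ra* and *Izumo1r* are shown, as far as they lie outside every annotated transcript of the gene, because *Il2ra* was lower and *Izumo1r* was not in DKO-severe Foxp3-positive cells, and because the windows of *Foxp3*, *Nrp1* and *Gpr83* lie inside annotated transcripts. Given next are chr2:11642542-11642791 (plus strand) and chr9:14903952-14904017 (minus strand), 5′ to 3′, with CG dinucleotides in capitals.
Il2ra: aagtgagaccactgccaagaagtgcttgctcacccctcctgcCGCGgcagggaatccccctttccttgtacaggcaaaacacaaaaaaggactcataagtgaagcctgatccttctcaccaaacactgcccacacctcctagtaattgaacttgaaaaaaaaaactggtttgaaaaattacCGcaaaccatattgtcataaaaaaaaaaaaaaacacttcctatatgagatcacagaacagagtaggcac
Izumo1r: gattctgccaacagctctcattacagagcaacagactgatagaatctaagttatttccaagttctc
The stretch shown for *Il2ra*, 250 bases, holds 3 CG dinucleotides and that for *Izumo1r*, 66 bases, holds 0. These lengths are unlike, and over 250 bases the counts were 3 and 2, as given above. On both strands of the 250 bases, the forkhead motif TGTTTAC was found in 0 of these promoters, against 3.17% of all 32851, and the STAT motif TTCNNNGAA in 1, the downstream start of *Foxp3*, against 7.02%. DNA methylation was not measured in these cells.

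The files held 7189 barcodes and 45294779 UMIs for WT and 7161 barcodes and 69692053 UMIs for DKO-severe, and after filtering 6583 and 6359 cells were retained. DKO-severe cells were deeper, with a median of 8066 UMIs against 5616, and in Foxp3-positive cells the medians were 11545 and 5382. Levels are therefore given as CPM (UMIs of the gene per 1000000 UMIs summed over the cells of a class), and shares of cells were taken after every cell was thinned at random to 3800 UMIs and gated again. Transcripts of other lineages also differed. In Foxp3-positive cells the summed level of 6 granulocyte genes was 76.2 CPM in WT against 3818 CPM in DKO-severe, where 1 cell held 54.4% of these UMIs. That of 6 myeloid genes was 32.7 and 706 CPM. That of 4 erythroid genes was 17.4 and 874 CPM, and in DKO-severe 1 cell held 91.9% of the erythroid UMIs. Of the 4 endothelial genes *Cdh5*, *Kdr* and *Tek* were at 0 in both. The other gene of that list supplied every endothelial UMI, 117 from WT cells (255 CPM) and 763 from DKO-severe cells (162 CPM). At most 2 UMIs of the 4 platelet genes and 10 of the 4 dendritic genes were found. The 6 B cell genes were 338 and 481 CPM and the 4 plasma cell genes 37.0 and 90.0 CPM. In other Foxp3-negative cells the granulocyte genes were 85.4 and 2224 CPM and the myeloid genes 73.2 and 357 CPM. Leaving out every cell with 3 or more UMIs of the B, plasma, myeloid, granulocyte or erythroid genes kept 36 of 64 and 45 of 331 Foxp3-positive cells, and 59 and 155 when *Ighm* was not counted. In the 36 and 45 cells the log2 ratios (DKO-severe over WT) were -1.12 for *Il2ra*, -1.07 for *Nrp1*, -3.08 for *Lrrc32*, -0.26 for *Gpr83* and -0.29 for *Izumo1r*, to be read beside the values of all cells in the paragraphs that follow.

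*Foxp3* itself, the lineage factor, was detected in more Cd4-gated cells of the DKO-severe mouse. At equal depth 4.34% (3.47 to 5.34%; 84 of 1937 cells) had a *Foxp3* UMI in DKO-severe and 2.01% (1.30 to 2.95%; 25 of 1245) in WT, while in Cd8-gated cells, which should lack the transcript, the shares were 0.575% and 0.477%. Over all Cd4-gated cells the level was 20.3 CPM in DKO-severe against 8.99 CPM in WT, a log2 ratio (DKO-severe over WT) of 1.17 (0.85 to 1.51). In program cells, which were chosen without *Foxp3*, it was 35.4 CPM over 805 DKO-severe cells and 52.4 CPM over 22 WT cells, and the interval of the log2 ratio, -0.57, ran from -1.42 to 0.45. Its level in Foxp3-positive cells, 200 CPM in WT against 120 CPM in DKO-severe, is fixed in part by the gate and is not read as a result. Both mice carry a *Foxp3* allele with the YFP and Cre cassette, and the effect of this cassette on counting was not tested.

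**Figure D1:**
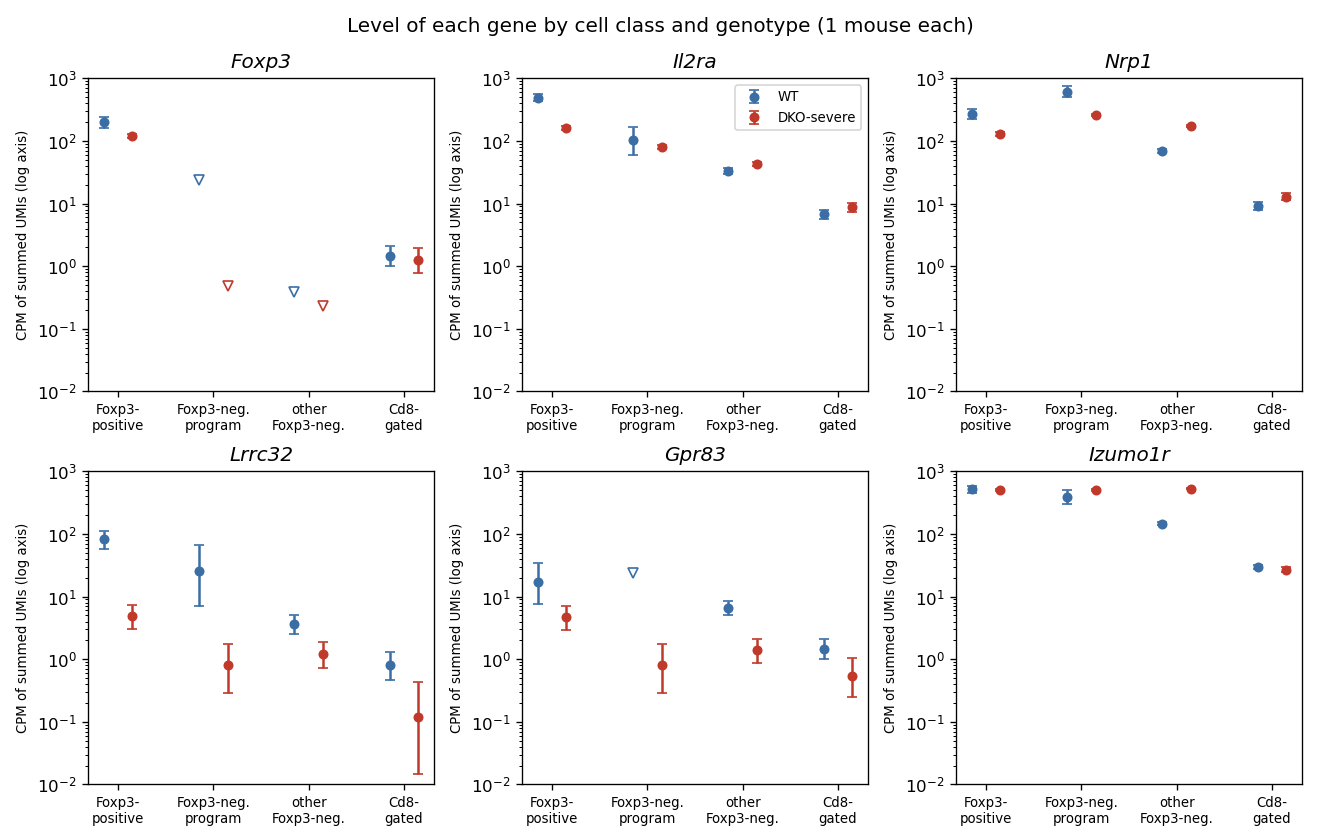
Level of the 6 genes (CPM of summed UMIs, log axis) in Foxp3-positive, Foxp3-negative program, other Foxp3-negative and Cd8-gated cells of WT (blue) and DKO-severe (red). Points are 1 mouse each, bars are 95% exact Poisson intervals, and open triangles are the upper bounds where the count was 0. *Il2ra*, *Lrrc32* and *Gpr83* were lower in DKO-severe Foxp3-positive cells, whereas *Izumo1r* was 509 to 532 CPM in the 3 Cd4-gated classes of DKO-severe.

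*Il2ra*, the α chain of the interleukin 2 receptor, was lower in the Foxp3-positive cells of the DKO-severe mouse and slightly higher in the other Foxp3-negative cells. In Foxp3-positive cells it was 490 CPM (428 to 559) in WT against 163 CPM (151 to 175) in DKO-severe, or -1.59 on the log2 ratio scale (-1.81 to -1.37) over 64 and 331 cells. Among those of 3800 to 12000 UMIs the log2 ratio was -0.96 (-1.27 to -0.64), which is under 2-fold. In the other Foxp3-negative cells it was 33.4 CPM in WT against 43.3 CPM in DKO-severe, with a log2 ratio of 0.38 (0.18 to 0.57) that shrank to 0.071 among cells of 3800 to 12000 UMIs. In Cd8-gated cells it was 6.72 and 8.77 CPM. The excess of Foxp3-positive over other Foxp3-negative cells was thus 14.7-fold in WT and 3.76-fold in DKO-severe, a difference of -1.97 (-2.26 to -1.68) on the log2 scale. At equal depth *Il2ra* was present in 60.0% (38.7 to 78.9%) of the 25 WT Foxp3-positive cells against 38.1% (27.7 to 49.3%) of the 84 in DKO-severe, and these intervals overlap. It was found in 1.67% and 3.00% of Cd8-gated cells. In program cells it was 224 CPM in WT against 103 CPM in DKO-severe (log2 ratio -1.12, -1.54 to -0.67), but 1 of the 22 WT cells held 48.9% of the WT UMIs. Without that cell the log2 ratio was -0.31 (-0.89 to 0.34).

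*Nrp1*, a co-receptor for semaphorins and vascular endothelial growth factors, differed in opposite directions in the 2 kinds of Cd4-gated cells. It was 272 CPM (227 to 324) in WT against 129 CPM (119 to 139) in DKO-severe Foxp3-positive cells, a log2 ratio of -1.08 (-1.36 to -0.79). In the other Foxp3-negative cells it was 70.2 CPM in WT against 174 CPM in DKO-severe, which gives a log2 ratio of 1.31 (1.19 to 1.44). As a result, *Nrp1* was 3.88-fold higher in Foxp3-positive than in other Foxp3-negative cells in WT, and 0.738 times as high in DKO-severe. At equal depth the share of other Foxp3-negative cells with *Nrp1* was 10.7% (8.99 to 12.5%) in WT and 35.8% (33.4 to 38.3%) in DKO-severe, and these intervals do not overlap. The shares in Cd8-gated cells were 1.84% and 3.77%. In Foxp3-positive cells gated after thinning, 25 and 84 in number, the log2 ratio of *Nrp1* was -0.043 (-0.73 to 0.70), and that of *Il2ra* -1.21 (-1.77 to -0.63). Thinning changed both the depth and the cells gated. Among Foxp3-positive cells of 3800 to 12000 UMIs, with all their UMIs, the log2 ratio of *Nrp1* was -0.85 (-1.24 to -0.45).

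*Lrrc32* encodes GARP, which holds latent TGF-β on the Treg surface, and its level differed more between the Foxp3-positive cells of the 2 mice than that of the other 5 members. It was 82.8 CPM (58.6 to 114) in WT, from 38 UMIs in 24 of 64 cells, and 4.87 CPM (3.09 to 7.31) in DKO-severe, from 23 UMIs in 17 of 331 cells. The log2 ratio was -4.09 (-4.90 to -3.30), equal to a 17.0-fold lower level, and was -2.23 (-4.23 to -0.36) with thinned counts. In the other Foxp3-negative cells *Lrrc32* was 3.64 CPM in WT against 1.21 CPM in DKO-severe (log2 ratio -1.59, -2.48 to -0.74). In Cd8-gated cells 17 UMIs were counted in WT and 2 in DKO-severe (with 2 UMIs counted as 3, log2 ratio -2.16, -5.90 to -0.67). *Lrrc32* was therefore lower in DKO-severe in these 3 classes, although in the second the interval reached 0 when cells with transcripts of other lineages were left out (log2 ratio -0.59, -2.06 to 0.79). At equal depth 24.0% (9.36 to 45.1%) of WT and 5.95% (1.961 to 13.4%) of DKO-severe Foxp3-positive cells had an *Lrrc32* UMI, against 0.307% and 0.128% of Cd8-gated cells. In the 805 DKO-severe program cells the level was 1.36 CPM, from 15 UMIs, and in the 22 WT program cells it was 47.6 CPM, from 10 UMIs.

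*Gpr83*, a G protein-coupled receptor, was sparsely captured, and its values carry wide intervals. In Foxp3-positive cells it was 17.4 CPM (7.52 to 34.3) in WT, from 8 UMIs, and 4.66 CPM (2.92 to 7.06) in DKO-severe, from 22 UMIs, a log2 ratio of -1.90 (-3.12 to -0.53). When a *Cd4* UMI was not required, which raised the number of Foxp3-positive cells to 138 and 476, the levels were 44.99 and 6.16 CPM, from 38 UMIs each. In Cd4-gated cells outside both classes it was 6.65 CPM in WT against 1.40 CPM in DKO-severe, which gives a log2 ratio of -2.25 (-3.02 to -1.53), and in Cd8-gated cells 1.48 and 0.545 CPM. *Gpr83* was thus lower in DKO-severe in these 3 classes with all cells and UMIs. In Foxp3-positive cells the interval reached 0 without cells with transcripts of other lineages (log2 ratio -0.26, -2.62 to 2.43) and among cells of 3800 to 12000 UMIs (-1.18, -2.65 to 0.48). It also did so with 2 or more *Foxp3* UMIs required (-1.27, -2.33 to 5.70, with 1 WT UMI counted as 3). In program cells 1 UMI was counted in WT and 17 in DKO-severe, which left the log2 ratio anywhere between -4.30 and 3.76. At equal depth it was found in 1 of 25 and 3 of 84 Foxp3-positive cells (4% and 3.57%), a difference that could not be resolved at this depth.

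*Izumo1r*, which encodes folate receptor 4, differed by less than counting error between the Foxp3-positive cells of the 2 mice, though not under each alternative. It was higher in the other Foxp3-negative cells of the DKO-severe mouse. In Foxp3-positive cells it was 518 CPM (455 to 589) in WT against 509 CPM (489 to 530) in DKO-severe, which gives a log2 ratio of -0.027 (-0.22 to 0.17). The interval left 0 among cells of 3800 to 12000 UMIs (log2 ratio 0.25, 0.02 to 0.48) and when a *Cd4* UMI was not required (0.22, 0.06 to 0.38). Among other Foxp3-negative cells it was 145 CPM (138 to 153) in WT against 532 CPM (521 to 544) in DKO-severe, which gives a log2 ratio of 1.87 (1.793 to 1.958). Its excess in Foxp3-positive over other Foxp3-negative cells, 3.57-fold in WT, was 0.956-fold in DKO-severe. At equal depth 27.1% (24.6 to 29.7%) of WT and 66.4% (63.9 to 68.8%) of DKO-severe other Foxp3-negative cells had an *Izumo1r* UMI, against 8.82% and 8.37% of Cd8-gated cells. The higher level in CD4 cells had no counterpart in Cd8-gated cells, where the level was 29.6 CPM in WT against 26.8 CPM in DKO-severe (log2 ratio -0.14, -0.32 to 0.04). In program cells it was 367 CPM in WT against 514 CPM in DKO-severe, and the sign of this difference turned when cells with transcripts of other lineages were left out (log2 ratio -0.028).

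**Figure D2:**
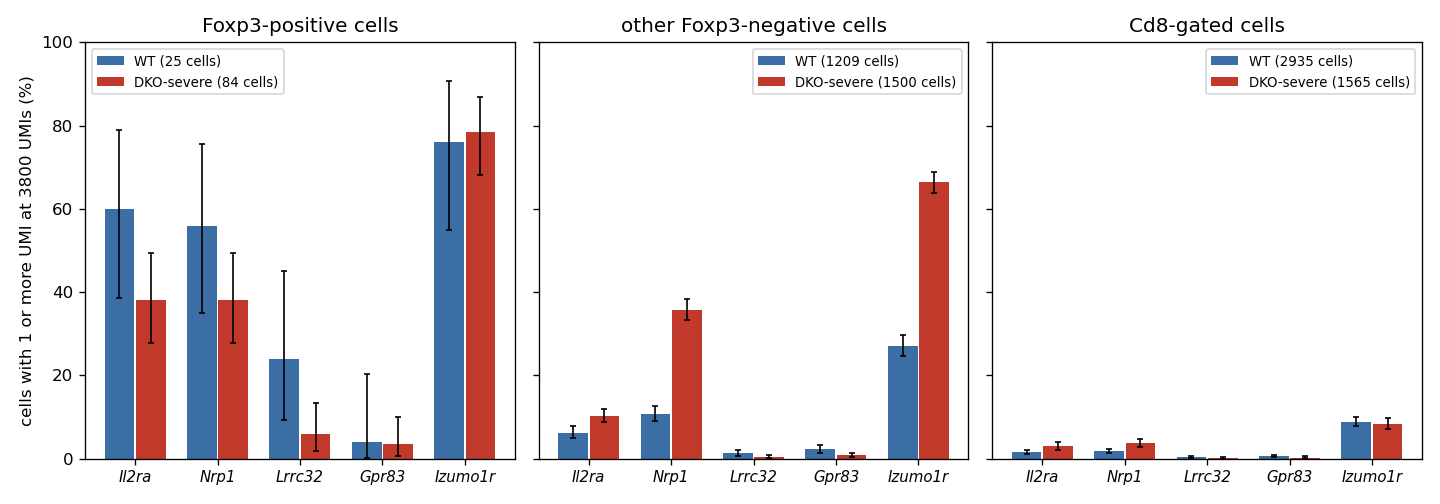
Share of cells with 1 or more UMI of each gene after thinning to 3800 UMIs (percent, vertical axis), in Foxp3-positive, other Foxp3-negative and Cd8-gated cells of WT (blue) and DKO-severe (red), with 95% exact binomial intervals. In other Foxp3-negative cells *Nrp1* was found in 10.7% and 35.8% and *Izumo1r* in 27.1% and 66.4% of cells, while both stayed below 10% in Cd8-gated cells of both genotypes.

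These differences can be set beside all genes with a mean of 20 CPM or more in the 2 groups compared. In Foxp3-positive cells 5.8% of 6488 genes were 2-fold or more lower in DKO-severe and 8% were 2-fold or more higher, and of the 5 members that passed this filter 3 were lower (*Il2ra*, *Nrp1* and *Lrrc32*) and 0 higher, while *Gpr83* did not pass it. *Lrrc32* passed only through its level in WT, so that it had to be among the lower genes, and these counts support nothing about the members as a group. In program cells 9.06% of 6599 genes were lower, with the same 3 of 5 members among them. Of these, *Lrrc32* was again fixed by the filter and *Il2ra* rested on 1 of the 22 WT cells. The log2 ratio of *Nrp1* there, -1.21, was -0.23 (-0.85 to 0.46) without cells with transcripts of other lineages, which kept 8 WT cells. In the other Foxp3-negative cells 6.89% of 6268 genes were higher, with *Nrp1* and *Izumo1r* among the 3 members that passed, and 2.76% were lower, with 0 of the 3. In Cd8-gated cells 1.71% of 5848 genes were higher and 0.872% lower, and the 1 member that passed, *Izumo1r*, was in neither group. Within WT, 5.27% of 6182 genes were 2-fold or more higher in Foxp3-positive than in other Foxp3-negative cells, and so were all 5 members that passed, of which *Foxp3* was fixed by the gate and *Lrrc32* by the filter. Within DKO-severe 2.65% of 6421 genes were, and of the 4 members that passed only *Il2ra* and the gated *Foxp3* did so. The Foxp3-negative program cells of DKO-severe differed from its other Foxp3-negative cells in 2.18% of 6467 genes in this direction, with 0 of 3 members. The medians of the 5 members other than *Foxp3*, passing the filter or not, were -1.59 in Foxp3-positive and 0.38 in other Foxp3-negative cells. All genes that passed had medians of 0.04 and 0.09, so the 2 sets are unlike. Both member medians are the value of *Il2ra*. In other Foxp3-negative cells the members ran from -2.25 (*Gpr83*) to 1.87 (*Izumo1r*), so the median there describes no common shift.

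The cells were next grouped by clustering on 2000 variable genes from which the 6 members had been left out, so that levels of the members could be compared within a cluster. Of 25 clusters, 1 led by *Ikzf4* (the Ikaros family factor EOS) and *Dst* held most WT Foxp3-positive cells, 52 of 64, and 34 of the 331 in DKO-severe. Another, led by *Dscam*, *Hapln1* and *Penk*, held 204 of the 331 DKO-severe Foxp3-positive cells and 1 of WT. The 2 mice thus had most of their Foxp3-positive cells in different clusters. The *Ikzf4*-led cluster had 567 WT cells and 202 DKO-severe cells. The *Dscam*-led cluster had 4 and 708, so it came almost wholly from 1 mouse. The clusters were not gated on *Cd4*. In the *Ikzf4*-led cluster 50.4% of WT and 55.0% of DKO-severe cells had a *Cd4* UMI, and 139 and 62 cells had a *Foxp3* UMI. It was picked as the cluster with the highest *Ikzf4* level, and what this choice did to the levels of the members was not tested.

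Within the *Ikzf4*-led cluster *Foxp3*, *Lrrc32*, *Gpr83* and *Izumo1r* differed between genotypes by less than counting error. This did not hold under each alternative, since the intervals left 0 for *Lrrc32* (log2 ratio 0.54, 0.07 to 1.00) and *Izumo1r* (-0.17, -0.34 to -0.0070) with finer clustering, for *Lrrc32* among cells of 3800 to 12000 UMIs (0.49, 0.0055 to 0.96) and for *Gpr83* with coarser clustering (-0.53, -1.003 to -0.06). *Lrrc32* was 35.7 CPM (29.6 to 42.6) in WT against 40.4 CPM (31.3 to 51.4) in DKO-severe, and *Gpr83* was 35.7 CPM (29.6 to 42.6) and 33.8 CPM (25.5 to 43.9). Their log2 ratios were 0.18 (-0.27 to 0.62) and -0.08 (-0.56 to 0.39). *Foxp3* was 58.2 and 64.0 CPM and *Izumo1r* 449 and 447 CPM. *Il2ra* was slightly higher in DKO-severe, 316 and 356 CPM (log2 ratio 0.17, 0.03 to 0.32), but its direction turned when the cells were clustered more coarsely (-0.17). *Nrp1* was lower, at 319 CPM (300 to 339) in WT against 161 CPM (142 to 181) in DKO-severe, which gives a log2 ratio of -0.99 (-1.19 to -0.80). By this value 0 of the 6 members were 2-fold or more lower, against 0.696% of 6177 genes, but *Nrp1* lay close to that limit and its side depended on the processing. Its log2 ratio was -1.64 with finer clustering, -1.11 and -1.09 without cells with transcripts of other lineages (with and without *Ighm* among them), -1.11 among cells of 3800 to 12000 UMIs and -0.85 with coarser clustering. At equal depth *Lrrc32* was present in 12.4% of the 460 WT cells of this cluster, in 13.4% of the 186 DKO-severe cells, and *Nrp1* in 41.1% and 28.0%. Among the 52 and 34 gated Foxp3-positive cells of the cluster the picture was less even. There *Lrrc32* was 104 CPM in WT against 36.8 CPM in DKO-severe (log2 ratio -1.50, -2.54 to -0.56; 38 and 13 UMIs) and *Izumo1r* 601 and 374 CPM (log2 ratio -0.69, -1.01 to -0.37).

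The *Dscam*-led cluster of DKO-severe had the same *Foxp3* level as the *Ikzf4*-led cluster of that mouse, 64.7 CPM (59.2 to 70.6) against 64.0 CPM, but little of 2 other members. *Lrrc32* was 2.02 CPM there, 20.04-fold lower (log2 ratio -4.32, -5.21 to -3.52), and *Gpr83* 1.39 CPM, 24.4-fold lower (log2 ratio -4.61, -5.69 to -3.66). *Il2ra* was 144 CPM, 2.48-fold lower, and *Nrp1* 116 CPM, 1.39-fold lower. *Izumo1r* was 614 CPM, 1.37-fold higher. *Foxp3* and *Izumo1r* thus stood at or above their *Ikzf4*-led level in this cluster, while *Il2ra* and *Nrp1* were lower and *Lrrc32* and *Gpr83* rested on 16 and 11 UMIs. Of all *Lrrc32* UMIs the *Ikzf4*-led cluster held 90.4% in WT (122 of 135) and 72.8% in DKO-severe (67 of 92), although it had only 12.5% of the *Foxp3* UMIs of DKO-severe, against 80.6% in WT. The *Dscam*-led cluster held 60.5% of the *Foxp3* UMIs of DKO-severe and 17.4% of its *Lrrc32* UMIs. These clusters were drawn from the same cells, so the contrast between them is a description.

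**Figure D3:**
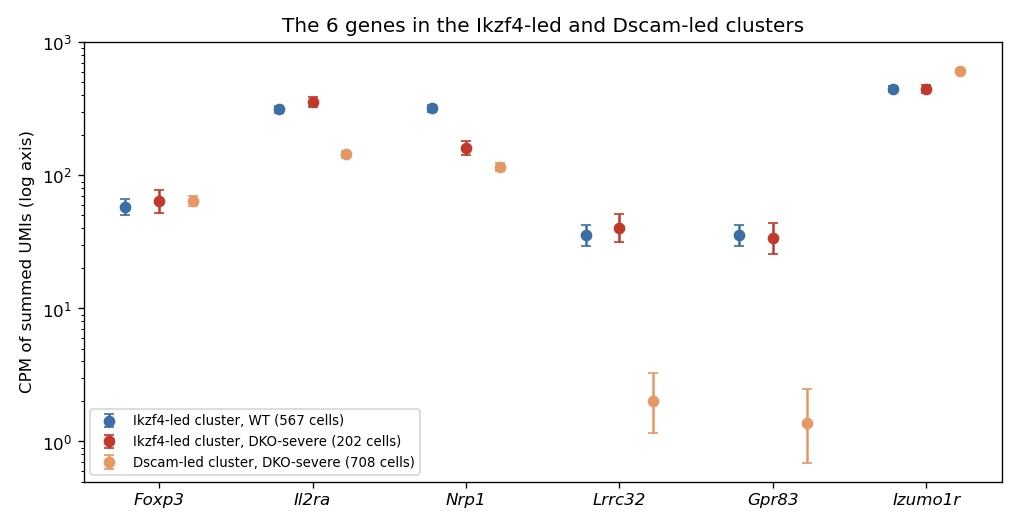
Level of the 6 genes (CPM of summed UMIs, log axis) in the Ikzf4-led cluster of WT (blue, 567 cells) and DKO-severe (red, 202 cells) and in the Dscam-led cluster of DKO-severe (orange, 708 cells), with 95% exact Poisson intervals. The first 2 groups differ clearly in *Nrp1*, at 319 and 161 CPM, and the third stands apart in *Lrrc32* and *Gpr83*, at 2.02 and 1.39 CPM.

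Among program cells of DKO-severe, those with a *Foxp3* UMI (221 cells) were compared with those without (584 cells), since a low transcript is missed by chance in many cells. *Il2ra* was 1.92-fold higher in those with *Foxp3* (log2 ratio 0.94, 0.77 to 1.11), at 153 against 79.7 CPM. *Nrp1* was 0.554 times as high, at 144 against 260 CPM. *Izumo1r* did not follow *Foxp3*, at 522 and 511 CPM (log2 ratio 0.03, -0.05 to 0.11). *Lrrc32* and *Gpr83* rested on 9 and 11 UMIs in the cells with *Foxp3* and 6 and 6 in those without. Cd4-gated cells were also divided by their number of *Foxp3* UMIs. In DKO-severe, cells with 0, 1, 2 and 3 or more *Foxp3* UMIs had 55.1, 143, 145 and 238 CPM of *Il2ra*, and 525, 491, 570 and 480 CPM of *Izumo1r*. In WT the corresponding *Il2ra* levels were 34.5, 388, 847 and 471 CPM, the last from 5 cells. Within DKO-severe *Nrp1* was highest in the cells without *Foxp3*, at 202 CPM, whereas within WT it was lowest in them, at 78.9 CPM. The cells of these 4 steps had medians of 5258, 5198, 5580 and 10501 UMIs in WT, and 7965, 11398.5, 11234 and 12691 in DKO-severe. The part of depth in these levels was not tested.

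The members were also counted per cell. At equal depth 13.1% (11.3 to 15.1%) of WT and 40.1% (37.9 to 42.3%) of DKO-severe Cd4-gated cells had 2 or more of the 6 genes, against 1.57% and 1.66% of Cd8-gated cells. The shares with 3 or more were closer, 4.50% (3.42 to 5.80%) and 7.54% (6.40 to 8.80%). Cells with 2 or more members were therefore common in DKO-severe. Both *Nrp1* and *Izumo1r* were found in 616 of these 776 cells, and in 99 of the 163 in WT. Few cells with 2 or more of the other 5 members had *Foxp3* in either mouse, 12.5% (20 of 160) in WT and 5.93% (44 of 742) in DKO-severe. Of cells with 3 or more of the other 5 members, 25.0% (13.6 to 39.6%; 12 of 48) had *Foxp3* in WT and 11.3% (6.16 to 18.6%; 13 of 115) in DKO-severe, and of cells with 2 of them 7.14% and 4.94%. With 0 of the other members the shares were 0.249% and 1.44%. With 1 of them they were 1.06% (0.22 to 3.08%) and 4.36% (3.04 to 6.05%). *Foxp3* detection thus followed the number of other members in both mice, and the intervals of the 2 mice overlap at 0, 1, 2 and 3 or more. Of the *Lrrc32*-detected cells, 16 of 24 in WT and 8 of 14 in DKO-severe also had *Il2ra*, whereas of the *Il2ra*-detected cells 16.8% (9.94 to 25.9%) in WT and 3.05% (1.33 to 5.93%) in DKO-severe had *Lrrc32*.

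**Figure D4:**
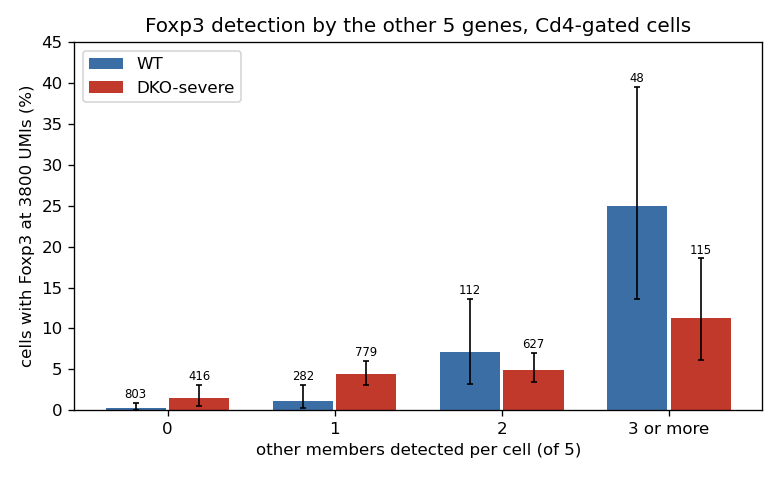
Share of Cd4-gated cells with a *Foxp3* UMI after thinning to 3800 UMIs (percent), by the number of the other 5 members detected in the cell, for WT (blue) and DKO-severe (red). Error bars are 95% exact binomial intervals, and cell numbers are printed on the plot. The shares run from 0.249% to 25.0% in WT and from 1.44% to 11.3% in DKO-severe.

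Of the remaining Foxp3-negative cells, those with 3 or more UMIs summed over *Cntn5*, *Ntng1* and *Ralyl* were taken as a first subgroup, and of the others those with *Il21* or with both *Pdcd1* and *Cxcr5* (genes of T follicular helper cells) as a second. *Cntn5*, *Ntng1* and *Ralyl* are among the leading genes of a cluster of these same data, with 6 WT and 1237 DKO-severe cells. The first subgroup held 1040 of 1823 DKO-severe cells and 14 of 1658 WT cells. In its DKO-severe cells *Izumo1r* was 758 CPM (741 to 776) and *Nrp1* 241 CPM (232 to 252), from 7234 and 2305 UMIs, while *Lrrc32* had 2 UMIs and *Gpr83* 7. Of the 8359 *Izumo1r* and 2737 *Nrp1* UMIs in other Foxp3-negative cells of DKO-severe, most were therefore in a subgroup almost without *Lrrc32*. The 14 WT cells of this subgroup had *Izumo1r* at 511 CPM and *Nrp1* at 219 CPM, and the log2 ratios were 0.57 (0.13 to 1.04) and 0.14 (-0.52 to 0.90). Cells of the first subgroup that also had *Il21*, or *Pdcd1* and *Cxcr5*, were not put in the second, and their number is not given here. In the subgroup with *Il21* or *Pdcd1* and *Cxcr5*, 29 and 45 cells, *Izumo1r* was 476 and 484 CPM (log2 ratio 0.02, -0.33 to 0.38). *Nrp1* was lower there in DKO-severe, 155 and 69.1 CPM (log2 ratio -1.17, -1.91 to -0.41).

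Other genes of the Treg program were read from lists. Of 20 genes known to be high in Treg cells, 17 passed the 20 CPM filter in Foxp3-positive cells, of which 8 were 2-fold or more higher and 3 lower in DKO-severe, beside 8% and 5.8% of all genes, with a median log2 ratio of 0.58 against 0.04 for all genes. Among them *Lag3*, *Tigit*, *Swap70* and *Socs2* passed only through the mouse in which they were higher, which fixed their calls. Higher were the costimulatory receptors *Tnfrsf9* (74.1 to 333 CPM, log2 ratio 2.17), *Tnfrsf4* (1.48) and *Tnfrsf18* (1.22), the inhibitory receptors *Lag3* (2 and 580 UMIs, 4.36 and 123 CPM; with 2 UMIs counted as 3, log2 ratio 4.23, 2.96 to 7.87) and *Tigit* (2.36), the integrin chains *Itgb8* (2.08) and *Itgae* (1.04), and *Nt5e* (1.06), an enzyme of adenosine production. Lower were *Ikzf4* (126 to 52.5 CPM, log2 ratio -1.27), *Swap70* (-2.51) and *Socs2* (-2.19). *Ctla4*, at 442 and 435 CPM, and *Il2rb*, at 253 and 235 CPM, were within their counting error. In the other Foxp3-negative cells 10 of the 12 list genes that passed were 2-fold or more higher and 0 lower, beside 6.89% and 2.76% of all genes and with a median log2 ratio of 1.62 against 0.09. *Entpd1*, *Itgb8* and *Lag3* passed there only through DKO-severe. Higher were for example *Itgb8* (12.4 to 103 CPM, log2 ratio 3.06) and *Ctla4* (85.9 to 305 CPM, 1.83).

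Lists of genes of the pathways in which the members act were read in the same Foxp3-positive cells, against the same shares of all genes. Of 7 genes of interleukin 2 reception and signalling, 3 were 2-fold or more lower and 0 higher in Foxp3-positive DKO-severe cells, namely the signal transducer *Stat5b* (255 to 114 CPM, log2 ratio -1.16, -1.45 to -0.86) and its feedback targets *Cish* (78.4 to 32.6 CPM, -1.27) and *Socs2* (50.1 to 11.02 CPM, -2.19), while the receptor chains *Il2rb* and *Il2rg* had log2 ratios of -0.10 and -0.21. *Socs2*, which is also in the Treg list above, passed the filter only through WT, which fixed its call as lower. The median of the interleukin 2 list was -0.62. Of 5 genes of TGF-β handling 4 passed, and *Itgb8*, part of an integrin that activates latent TGF-β, was the 1 past 2-fold (47.9 to 203 CPM), in the direction opposite to *Lrrc32*. *Tgfb1* itself was 82.8 and 124 CPM, and the median of the 4 was 0.57. Of 7 partners and regulators of *Foxp3*, 2 were lower, *Foxp1* (1484 to 227 CPM, log2 ratio -2.71) and *Foxo3* (-1.09), and *Runx1*, *Cbfb* and *Gata3* had log2 ratios of 0.31, 0.01 and 0.02, with a median of -0.27 over the 7. Of 5 genes known to be low in Treg cells, 3 passed and 2 were lower, *Satb1* (516 to 212 CPM) and *Igfbp4* (67.5 to 9.75 CPM, passing only through WT), with a median of -1.28 over the 3. None of the 2 other folate receptors and of the 3 relatives and partners of *Nrp1* passed the filter in these cells.

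The genes whose pattern was most like that of each member were found over 32 units, each the cells of 1 cluster and 1 genotype with 50 or more cells, by Pearson's r of log2(CPM + 5) among 9692 other genes. The units share the library and its depth, so r is a description. *Foxp3* was most like *Ikzf4* (r = 0.85), *Ttn* (0.83) and *Tnfrsf8* (0.82), and *Il2ra* like *Nfkbia* (0.83), *Pdia3* (0.83) and *Mdfic* (0.79). *Nrp1* was most like *Galm* (0.91), *Ptpn13* (0.90) and *Tnfsf11* (0.89), and *Izumo1r* like *Atp9a* (0.93), *Ctla4* (0.93) and *Tbc1d4* (0.91). *Lrrc32* and *Gpr83* were each other's nearest gene (0.85), followed in both by *Gata1* (0.79 and 0.82). Both members reached 20 CPM only in the WT and DKO-severe units of the *Ikzf4*-led cluster. In the other units they were at most 2.02 and 9.19 CPM, so their likeness comes mostly from that cluster. Among the members, *Nrp1* and *Izumo1r* also went together (0.84), whereas *Nrp1* and *Gpr83* (0.21) and *Izumo1r* and its chromosomal neighbour *Gpr83* (0.32) did so least.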

How the data were processed

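Single-cell RNA was captured with a droplet kit that counts the 3′ end of transcripts, with hashtag antibodies marking the genotype. The deposited matrices, 1 for each genotype, hold whole-number UMI counts per gene and barcode produced by the authors (Cell Ranger 7.1.0 in the submitters' processing notes), on mm10 per the study's methods; whether intronic reads were counted is not given in the sources used here. The matrices share 0 barcodes.

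Barcodes carrying the other genotype's hashtag (3), with fewer than 500 genes or with over 10% mitochondrial UMIs were left out. The automatic threshold of Scrublet (scanpy 1.11.5) marked 0 doublets in both matrices, so the highest 6% of doublet scores were removed. Thinning to 3800 UMIs left out 10.5% of WT and 7.49% of DKO-severe cells as shallower. Levels are sums of counts, with 95% exact Poisson intervals, and ratios have conditional exact intervals (scipy 1.17.1, numpy 2.4.6). Shares have Clopper-Pearson intervals. Fewer than 3 UMIs counted as 3 in a ratio, and no ratio is given where both sides had 3 or fewer. Clusters came from 30 principal components, 20 neighbours and Leiden clustering at resolution 1 (leidenalg 0.10.2). The calculation of ratios was tested on simulated data.

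The named genes are the 6 members, the genes of the lists, and the 3 genes most like each member. Members and lists were chosen with earlier results of these data known. No test was made between genotypes, since each is 1 mouse. The alternatives were other gates, thinning, scalings, a pseudocount of 5 CPM, doublet removal, and leaving out cells by depth or by transcripts of other lineages. Leaving out such cells without counting *Ighm*, leaving out the cell with the most UMIs of a gene, and all cluster alternatives were chosen after seeing the data.

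A further division of the Foxp3-negative cells is not reported here.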

Additional observations from a re-analysis of the deposited data

Results flagged for a closer look

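*Il2ra* and *Nrp1* stood out because each differed between genotypes in opposite directions in the 2 main kinds of Cd4-gated cells. The log2 ratio (DKO-severe over WT) of *Il2ra* was -1.59 in Foxp3-positive and 0.38 in other Foxp3-negative cells, and the contrast between the 2 classes differed between the mice by -1.97 (-2.26 to -1.68, counting error only). That of *Nrp1* was -1.08 and 1.31, with a difference of -2.39 (-2.70 to -2.09). The opposite directions did not hold throughout. In Foxp3-positive cells gated after thinning the log2 ratio of *Nrp1* was -0.043 (-0.73 to 0.70), and in other Foxp3-negative cells that of *Il2ra* was 0.071 (-0.16 to 0.30) among cells of 3800 to 12000 UMIs and 0.18 (-0.11 to 0.47) without cells with transcripts of other lineages. With 1 mouse per genotype these differences were not tested against the spread between mice.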

How the results depend on the processing

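Of 344 log2 ratios of single members recomputed under alternatives in the cell classes, 282 stayed within the counting interval of the reported value, 57 left it with the same direction or without a called direction, and 5 turned a called direction. For *Il2ra* in program cells the log2 ratio was 0.42 when 2 or more program genes had to be detected. For *Izumo1r* it was -0.028 in program cells and -0.24 in Foxp3-negative program cells when cells with other lineage transcripts were left out, -0.14 in the latter when *Ighm* was not counted among them, and -0.12 among cells of 3800 to 12000 UMIs. Outside these 344, the direction of *Il2ra* in the *Ikzf4*-led cluster also turned, to a log2 ratio of -0.17 at a clustering resolution of 0.5. The median of the members was -0.69 in Foxp3-positive cells with thinned counts, 0.18 and 0.071 in other Foxp3-negative cells without cells with other lineage transcripts and among cells of 3800 to 12000 UMIs, and -0.71 and 0.34 under the same pair of settings in Cd8-gated cells. The share of Cd4-gated cells with 2 or more members was 11.1% in WT and 28.3% in DKO-severe with thinning to 2500 UMIs, and in DKO-severe 32.6% when a *Cd4* UMI was not required and 33.5% without cells with other lineage transcripts. The cause of these shifts was not tested.

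With genes of 5 CPM or more in place of 20 CPM, the genes 2-fold or more lower in DKO-severe numbered 876 rather than 376 in Foxp3-positive, 1694 rather than 598 in program, 368 rather than 173 in other Foxp3-negative and 132 rather than 51 in Cd8-gated cells. Those higher numbered 1006 rather than 519, 958 rather than 432 and 240 rather than 100 in Foxp3-positive, other Foxp3-negative and Cd8-gated cells. Genes higher in Foxp3-positive than in other Foxp3-negative cells numbered 894 rather than 326 in WT and 488 rather than 170 in DKO-severe, and in Foxp3-negative program cells of DKO-severe 438 rather than 141. *Gpr83* then passed the filter in Foxp3-positive cells and was among the lower genes.

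No paired analysis was possible because each genotype is 1 mouse in 1 library and no result comes from a test. *Lrrc32* and *Gpr83* rest on 92 and 107 UMIs in all retained DKO-severe cells, so their values in small classes have wide intervals.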

Other observations

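Outside the *Ikzf4*-led and *Dscam*-led clusters, *Izumo1r* and *Nrp1* were high in clusters that came almost wholly from the DKO-severe mouse. A cluster led by *Cntn5*, *Ntng1* and *Flrt2*, with 6 WT and 1237 DKO-severe cells, had *Izumo1r* at 775 CPM and *Nrp1* at 260 CPM in DKO-severe, with *Lrrc32* at 0.27 CPM. Another, led by the chemokine genes *Ccl3* and *Ccl4* and by *Spp1*, with 0 and 228 cells, had *Nrp1* at 606 CPM and *Izumo1r* at 609 CPM. These values are descriptions of 1 mouse.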
